A study of Arabidopsis thaliana with 27 samples.

Results

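The genes described here encode WRKY and NAC transcription factors of Arabidopsis, as far as the array annotation names them. A member was any probe set assigned to 1 gene whose symbol starts with WRKY, NAC or ANAC followed by a digit. The rule gave 7 genes, 6 WRKY and 1 NAC, each with 1 probe set, out of 13356 genes named by 13513 probe sets with 1 assigned gene. In all, 22746 probe sets were tested. The members were WRKY6 (AT1G62300), WRKY42 (AT4G04450) and WRKY47 (AT4G01720) of WRKY group IIb, WRKY22 (AT4G01250) of group IIe, WRKY53 (AT4G23810) of group III, WRKY20 (AT4G26640) of group I, and NAC014 (AT1G33060). Most genes of both families were not analysed here, so the 7 members do not stand for the families.

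The data are 27 Affymetrix ATH1 arrays of total RNA from Arabidopsis thaliana roots, with plants kept on MS containing 4.5% sucrose in cycles of 16 h light and 8 h dark. Of these, 15 arrays came from 5 GFP marker lines, 3 arrays per line. By its tissue label J3411 (background C24) marks the lateral root cap plus epidermis and SCR (Landsberg) the endodermis and quiescent centre, although SCR replicate 1 carries no tissue label. The other 3 lines have the Columbia background: WOL marks the stele and fades from the elongation zone, GL2 the hairless epidermal cells, and J0571 endodermis, cortex and quiescent centre. The remaining 12 arrays came from Columbia root segments, 4 per stage. Stage I lies where the tip attains full diameter, near 0.15 mm from the tip. Stage II lies near 0.3 mm, where lengthwise growth starts, and Stage III spans 0.45 to 2 mm, where hairs have finished growing. Sorting of cells is not stated in the labels, and neither is separate growth of the replicates, so p-values measure the spread between these arrays, which may be technical. With 3 or 4 arrays in a group, precision is limited.

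WRKY proteins are plant transcription factors that bind W-box elements, and many are switched on within a short time of pathogen, wound or elicitor signals through MAP kinase cascades. Others act in leaf senescence and in nutrient supply of the root, among them repressors of phosphate export to the xylem. NAC proteins are another large family of plant transcription factors, with members that control root cap maturation, xylem differentiation and stress responses. In both families, transcript levels can respond to how a tissue is handled as well as to which cells it holds.

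Marker genes followed most labels. The marker lists were chosen with earlier results of these data known, so this is not a separate check of the labels. All 3 measured root cap markers were higher in J3411 than in the other 4 lines, all 3 endodermis markers were higher in SCR and in J0571, all 3 cortex markers in J0571 and all 3 stele markers in WOL. All 3 root hair markers were also higher in WOL, and in Stage III against both other stages. In WOL, 2 of 3 endodermis markers and 1 of 3 root cap markers were higher too, and in SCR 2 of 3 cortex markers. Array J3411 replicate 3 stood apart: its root hair markers had a mean log2 signal of 7.76, against 3.67 on the lowest array of J3411. SCR replicate 1 had 5.83, against 2.99 on the lowest SCR array. GL2 arrays had 3.33 to 4.12. Root cap markers on SCR replicate 1 were at 6.71, against 3.72 and 3.24 on SCR replicates 2 and 3. By their cre spike-in signals 8 arrays (replicates 1 and 2 of each stage, replicates 2 and 3 of SCR) form a low class and the other 19 a high class. Both spike-in settings, a block for the class and high-class arrays alone, therefore leave SCR with 1 array, replicate 1. For a difference of SCR from other lines they are 1 comparison, given by its size only. The GAPDH 3'/5' ratio, which rises as RNA is degraded or labelled incompletely, ran from 0.717 to 4.09 on the line arrays, 4.34 to 7.85 on low-class stage arrays and 14.9 to 31.7 on high-class stage arrays.

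Signals are MAS5 intensities as deposited, on a linear scale. Differences are on the scale log2(signal + 2.37), as mean ± standard error from limma, with p-values adjusted by Benjamini-Hochberg over all 22746 probe sets and called under 0.05. A signal was taken as above background when it exceeded 14.78, a level that 95% of the signals of 12 unspiked bacterial probe sets stay under. Each fold is a ratio of geometric means with signals under that level raised to it, so folds with such arrays on the low side may be too small. No level of one gene is set against that of another, because probes differ in their response.

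**Figure D1:**
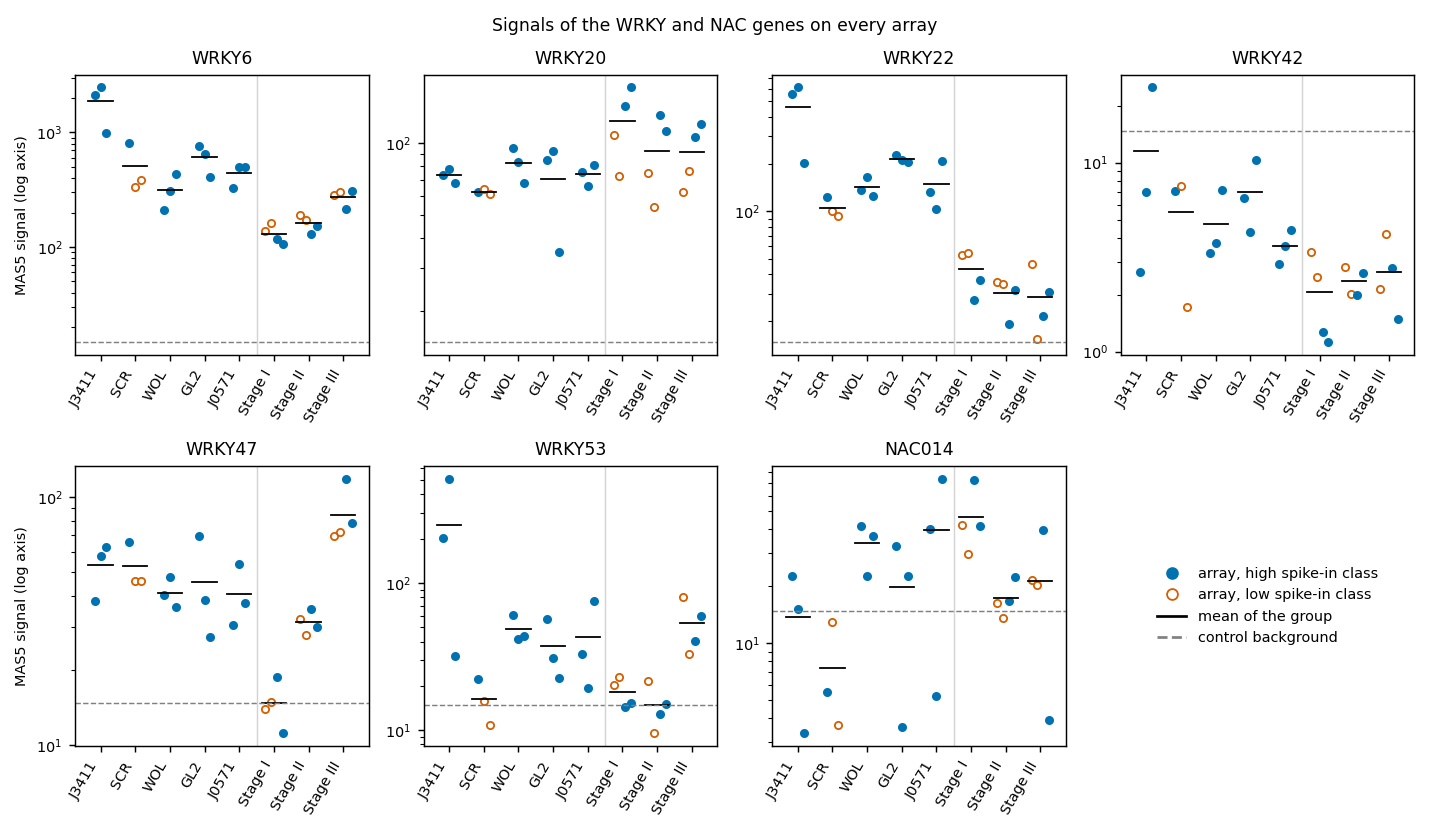
MAS5 signal (log axis) of each WRKY and NAC gene on each of the 27 arrays, by marker line (left of the grey line) and stage (right), with filled points for the high and open points for the low spike-in class, bars for group means and a dashed line at the control background of 14.78. WRKY6 in J3411 (997 to 2479) lies above every other line array (210.5 to 809.7), WRKY22 separates all line arrays from all stage arrays, and WRKY42 exceeds background on 1 array.

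The first question was which members differ between the marker lines. J3411, the line of the lateral root cap and epidermis, had higher WRKY6, WRKY22 and WRKY53 than the mean of the other 4 lines. These 3 of 7 members compare with 10.3% of all probe sets called in either direction in the same comparison, and 5.02% called higher. With 7 members, an excess over all probe sets was not tested. No member was called lower in J3411.

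WRKY6, a group IIb factor that represses the phosphate exporter gene PHO1 and is linked to senescence and defence, gave signals of 2114, 2479 and 997 in J3411. They were 809.7, 331 and 385 in SCR, 210.5, 306 and 432 in WOL, 765, 647 and 411 in GL2, and 329, 500.5 and 497 in J0571. Every J3411 array was above all 12 arrays of the other lines, and WRKY6 was the only member without overlap in this comparison. How many of all probe sets separate in this way was not counted. The mean in J3411 was 1863 ± 772 (SD, n = 3) against 469 ± 186 (n = 12), a 3.97-fold ratio and a log2 difference of 1.98 ± 0.32 (limma adjusted p = 0.000684). In order of mean level the lines ran J3411, GL2, SCR, J0571 and WOL. WRKY6 was higher in J3411 than in each other line, by 2.51 against WOL (limma adjusted p = 0.000586), 1.99 against J0571 (0.00461), 1.88 against SCR (0.00437) and 1.56 against GL2 (0.0329). The GL2 call was lost with no intensity trend (adjusted p = 0.0598), with the replicate block (0.0515), and without J3411 replicate 1 (0.149) or 2 (0.165) or GL2 replicate 2 (0.0772) or 3 (0.142). Both spike-in settings leave SCR replicate 1 as the only SCR array, and the SCR difference was then 1.10, smaller than the 1.88 of all arrays. Neighbours in the order below J3411 did not pass the test: the arrays overlapped and the differences were -0.33 ± 0.40 for SCR against GL2, 0.11 ± 0.40 for SCR against J0571 and -0.51 ± 0.40 for WOL against J0571.

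WRKY22, a group IIe factor placed downstream of flagellin perception and MAP kinases, gave 560.4, 615 and 204 in J3411. The other signals were 124, 101 and 93.3 in SCR, 137, 166 and 125 in WOL, 229, 212 and 205 in GL2, and 133, 104 and 210.1 in J0571. The first 2 J3411 arrays stood above every other line array, whereas the third lay just under the GL2 arrays. The J3411 mean of 459.65 ± 223 (SD, n = 3) compared with 153 ± 48.97 (n = 12) in the other lines, a 2.82-fold ratio and a log2 difference of 1.48 ± 0.27 (limma adjusted p = 0.00215). WRKY22 was higher in J3411 than in SCR (1.95, limma adjusted p = 0.00122), WOL (1.53, 0.00878) and J0571 (1.52, 0.0117). With SCR replicate 1 as the only SCR array, as in both spike-in settings, the SCR difference was 1.72. Leaving out J3411 replicate 1 or 2 ended the WOL call (1.31 and 1.24, adjusted p = 0.0530 and 0.0584), and the J0571 call was lost without either of these arrays (0.0716 and 0.0759) or J0571 replicate 2 (0.0576). Against GL2, the other epidermal line, the difference was 0.93 ± 0.35 (limma adjusted p = 0.138), and without J3411 replicate 3 it was 1.44 (0.00266).

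WRKY53, a group III factor known as a regulator of the onset of leaf senescence, varied most among the J3411 arrays, with signals of 201, 511 and 31.8. They were 22.4, 15.9 and 10.9 in SCR, 60.3, 41.5 and 43.7 in WOL, 57.3, 31.1 and 22.8 in GL2, and 32.99, 19.3 and 75.8 in J0571. The third J3411 array lay inside the range of the other lines. WRKY53 was higher in J3411 by 2.17 ± 0.57 (limma adjusted p = 0.0224), a 4.64-fold ratio of geometric means. The call was lost without J3411 replicate 1 (1.97, limma adjusted p = 0.145) or replicate 2 (1.30, 0.264), and with high-class arrays alone (2.06, 0.0588). In pairs of lines WRKY53 passed for J3411 against SCR (3.07, limma adjusted p = 0.00882), a call lost without J3411 replicate 2 (2.20, 0.0521). In both spike-in settings, with SCR replicate 1 alone for SCR, that difference was 2.63. Against WOL, GL2 and J0571 WRKY53 did not pass with the 15 line arrays, but with stage arrays in the same fit it passed against GL2 (adjusted p = 0.0390) and J0571 (0.0442). Without J3411 replicate 3, the lowest J3411 array, it passed against all 3 (2.69, 3.13 and 3.04, limma adjusted p = 0.00305, 0.00171 and 0.00165).

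In all 3 genes the lowest J3411 signal was that of replicate 3, the array with raised root hair markers. Without it, the J3411 differences were 2.38 for WRKY6 (limma adjusted p = 0.000177), 1.99 for WRKY22 (2.89e-05) and 3.25 for WRKY53 (0.000193). Leaving out the lowest J3411 array raises these differences by construction, so the values add no support. The same holds for the J3411 calls of WRKY22 and WRKY53 against single lines that were gained without it. Without SCR replicate 1 the differences were 2.08, 1.51 and 2.23, and all 3 calls were kept. Since J3411 is the only line in the C24 background, cell type and background cannot be told apart in any comparison with J3411. In bulk RNA, more expressing cells and more transcript per cell cannot be told apart either.

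**Figure D2:**
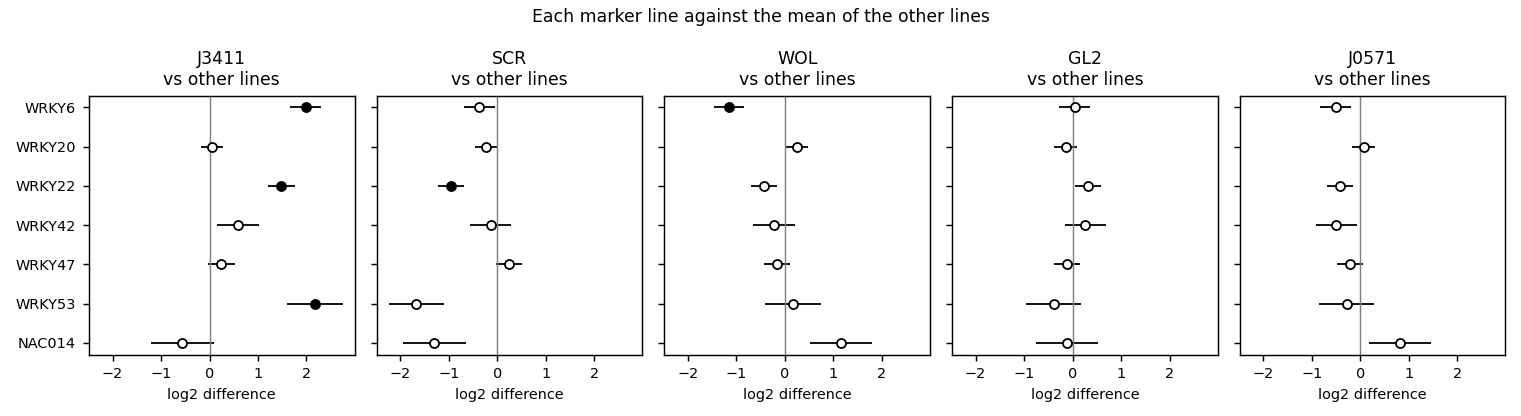
Difference of each member between 1 marker line and the mean of the other 4 on the scale log2(signal + 2.37), with bars of 1 standard error and filled points where the limma adjusted p is under 0.05. WRKY6 (1.98), WRKY22 (1.48) and WRKY53 (2.17) are filled and to the right in J3411, WRKY22 (-0.95) is filled and to the left in SCR, and WRKY6 (-1.15) in WOL.

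The remaining lines carried few member calls. SCR is the only line in the Landsberg background, so cell type and background cannot be told apart in any comparison with SCR. SCR had 1 of 7 members called, a lower one, against 17.5% of all probe sets in either direction and 9.86% lower. WRKY22 was lower there, 106 ± 15.9 (SD, n = 3) against 242 ± 167 (n = 12), by -0.95 ± 0.27 (limma adjusted p = 0.0255). That call was lost with a block for spike-in class (adjusted p = 0.457), with high-class arrays alone (0.474), and without SCR replicate 2 (0.110) or replicate 3 (0.128), which are the 2 low-class SCR arrays. WRKY53 had its lowest line mean in SCR, with 2 of 3 arrays above background and a difference of -1.67 ± 0.57 that missed the threshold (limma adjusted p = 0.0565). It passed without J3411 replicate 3 (-1.94, adjusted p = 0.00323) or J0571 replicate 2 (-1.77, 0.0420). WRKY6 in SCR differed by -0.37 ± 0.32 (limma adjusted p = 0.4933). Without SCR replicate 1, the array with raised root cap and root hair markers, the WRKY6 difference was -0.76 (limma adjusted p = 0.116).

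WOL had 1 of 7 members called, a lower one, against 6.66% of all probe sets in either direction and 1.38% lower. WRKY6 was lower in WOL, a line labelled stele that had higher root hair markers as well as stele markers. It gave 316 ± 111 (SD, n = 3) against 855 ± 708 (n = 12), a difference of -1.15 ± 0.32 (limma adjusted p = 0.0388). The call was lost in 8 of 15 fits that left out 1 array, with a highest adjusted p of 0.271 without WOL replicate 1, and against the Columbia lines alone the difference was -0.73 (adjusted p = 0.130). In GL2 (12.8% of probe sets called) and J0571 (4.69%) limma called 0 of 7 members, and 0 had an unadjusted p under 0.05. WRKY6 differed by 0.04 ± 0.32 in GL2 and by -0.51 ± 0.32 in J0571. Over the 5 lines together, 3 of 7 members differed by limma's F test, against 26.1% of all probe sets: WRKY6 (adjusted p = 0.00218), WRKY22 (0.00439) and WRKY53 (0.0440). The WRKY53 call held in 4 of 10 other settings and in 5 of 15 fits that left out 1 array, where the adjusted p reached 0.151. Among the Columbia lines alone, WRKY6 (adjusted p = 0.123), WRKY22 (0.180) and WRKY53 (0.759) did not pass that test.

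Over the 10 pairs of lines, every member call of the fit with all 15 line arrays involved J3411. The J3411 pairs had 3 of 7 members called against SCR (15.0% of probe sets), 2 against WOL (11.0%), 1 against GL2 (5.37%) and 2 against J0571 (7.45%). In the other 6 pairs limma called 0 of 7, and 0 or 1 member had an unadjusted p under 0.05. WRKY22 in SCR against GL2 (-1.02, adjusted p = 0.0541) passed with dim probe sets left out (0.0457) and in 4 fits that left out 1 array, the lowest being 0.00685 without J3411 replicate 3. NAC014 in SCR against J0571 passed without J0571 replicate 2 (-2.65, adjusted p = 0.0335). Of all probe sets, 7.57% were called for SCR against WOL, 18.3% for SCR against GL2 and 8.95% for SCR against J0571. The shares were 10.0% for WOL against GL2, 3.82% for WOL against J0571 and 9.77% for GL2 against J0571.

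The other members passed no line test. WRKY47, a group IIb factor reported in aluminium tolerance, gave 27.4 to 69.7 over the 15 line arrays with a median of 45.95, and every array was above background. Its line means ran from 40.6 in J0571 to 52.97 in J3411. WRKY20 lay between 35.2 and 95.1 with a median of 73.5, and the lowest value was that of GL2 replicate 3, where the other GL2 arrays read 84.9 and 92.1. NAC014, a NAC factor listed among those with a predicted membrane anchor, was the least even member within lines. It read 39.8, 5.27 and 73.7 in J0571 and 32.6, 3.59 and 22.6 in GL2, and only 9 of 15 line arrays were above background. Its signals of 41.5, 22.7 and 36.7 in WOL lay above those in SCR (5.47, 13.0 and 3.70), none of which exceeded background, but the SCR difference of -1.96 ± 0.81 did not pass (limma adjusted p = 0.157). WRKY42, the group IIb relative of WRKY6 that also acts on phosphate transport genes, exceeded background on 1 of 27 arrays, J3411 replicate 3 with 25.1. Its other 14 line arrays read 1.73 to 10.3 and no difference is drawn from it.

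The second question was how the members change along the root. WRKY6, WRKY47 and WRKY53 were higher in Stage III than in both earlier stages, and for each of them all 4 Stage III arrays lay above all 8 arrays of Stages I and II. These 3 of 7 members compare with 30.9% of all probe sets called for Stage III against Stage II, and 15.8% called higher. Against Stage I, 4 of 7 members were called, 3 higher and 1 lower, beside 43.1% of all probe sets, 21.0% higher and 22.1% lower. For Stage II against Stage I the count was 1 of 7, a higher one, beside 20.1% of all probe sets in either direction and 8.99% higher. With 7 members, these stage counts do not set the members apart from all probe sets. The share of all probe sets whose Stage III arrays lie apart from the earlier stages was not counted.

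WRKY47 differed in every stage comparison. It gave 14.0, 14.9, 18.9 and 11.1 in Stage I, 32.1, 27.9, 35.3 and 29.9 in Stage II, and 69.5, 71.9, 119 and 78.4 in Stage III. No stage overlapped with another, and 2 of 4 Stage I arrays were below background. It rose 1.98-fold from Stage I to Stage II (log2 difference 0.99 ± 0.25, limma adjusted p = 0.0108) and 2.65-fold from Stage II to Stage III (1.34 ± 0.25, 0.000889). From Stage I to Stage III the rise was 5.24-fold (2.33 ± 0.25, limma adjusted p = 3.63e-06). The call for Stage II against Stage I was lost with high-class arrays alone (1.04, limma adjusted p = 0.152) and with calls of at least 2-fold.

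WRKY6 gave 138, 162, 117 and 105 in Stage I, 190.5, 173, 129.7 and 151 in Stage II, and 282, 299.5, 215 and 306 in Stage III. The first 2 stages overlapped and did not differ beyond their spread (0.30 ± 0.18, limma adjusted p = 0.297). WRKY6 was 1.71-fold higher in Stage III than in Stage II (0.77 ± 0.18, limma adjusted p = 0.00518) and 2.12-fold higher than in Stage I (1.07 ± 0.18, 0.000245).

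WRKY53 read 20.3, 22.8, 14.3 and 15.3 in Stage I, 21.5, 9.51, 12.9 and 15.0 in Stage II, and 80.8, 32.7, 40.2 and 59.6 in Stage III. In the first 2 stages it sat at the background level, with 5 of 8 arrays just above it. In Stage III it was 3.08-fold higher than in Stage II (1.67 ± 0.33, limma adjusted p = 0.00151) and 2.79-fold higher than in Stage I (1.38 ± 0.33, 0.00338).

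**Figure D3:**
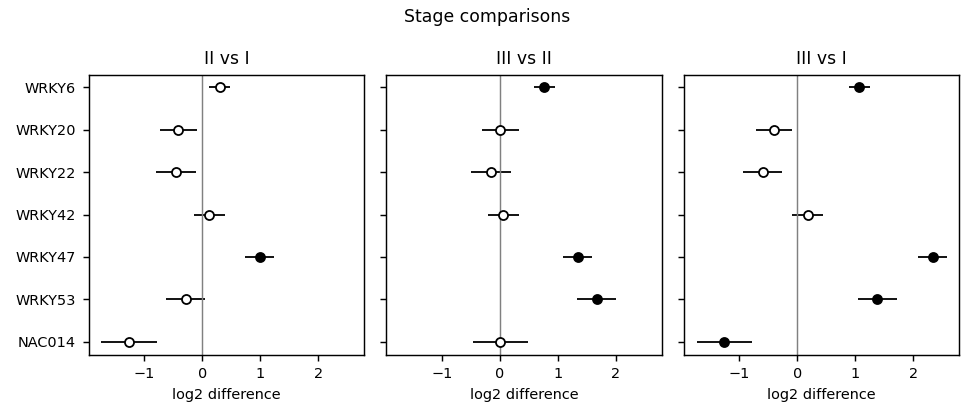
Difference of each member between stages on the scale log2(signal + 2.37), with bars of 1 standard error and filled points where the limma adjusted p is under 0.05. WRKY47 is filled in all 3 comparisons (0.99, 1.34 and 2.33), WRKY6 and WRKY53 are filled in both comparisons with Stage III, and NAC014 is filled to the left for Stage III against Stage I (-1.26).

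NAC014 was lower in Stage III than in Stage I. It gave 42.1, 29.4, 72.3 and 41.4 in Stage I, 16.3, 13.5, 16.6 and 22.2 in Stage II, and 21.5, 20.2, 39.4 and 3.92 in Stage III. All 4 Stage I arrays were above all 4 of Stage II, where the difference was -1.27 ± 0.48 and missed the threshold (limma adjusted p = 0.0774). It passed at -1.27 without Stage III replicate 4, the array at 3.92 (adjusted p = 0.0122). For Stage III against Stage I the difference was -1.26 ± 0.48 (limma adjusted p = 0.0452), with overlapping arrays, and the call was lost in 10 of 12 fits that left out 1 array, with adjusted p up to 0.134.

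Over the 3 stages, limma's F test called 3 of 7 members, against 46.4% of all probe sets: WRKY47 (adjusted p = 1.21e-05), WRKY6 (0.000630) and WRKY53 (0.00153). NAC014 had an adjusted p of 0.0575, which was 0.0413 with the replicate number as a block, making 4 of 7. WRKY22 read 27.3 to 54.4 in Stage I, 19.3 to 35.4 in Stage II and 15.4 to 46.5 in Stage III, with no stage call. WRKY42 stayed between 1.12 and 4.20, under background on all 12 arrays.

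The Stage III arrays also had higher root hair markers, whose mean log2 signal was 9.68 to 10.4 in Stage III, 3.89 to 6.38 in Stage II and 3.69 to 6.28 in Stage I. Endodermis markers were at 8.99 to 9.50 in Stage III and at 3.90 to 7.18 in the first 2 stages. Of the 3 measured stele markers, 2 were higher than in Stage II and 1 than in Stage I, with levels of 5.82 to 6.80 in Stage III and 3.85 to 5.10 before. Of the 3 root cap markers, 2 were lower in Stage III than in Stage I, where their levels were 8.11 to 8.94, and on no Stage III array did the level pass 6.196. The part of these markers in the rise of WRKY6, WRKY47 and WRKY53 was not tested.

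WRKY20 differed with the spike-in class of the stage arrays, whose GAPDH 3'/5' ratios differ as well. It gave 108, 72.9, 142 and 170.3 in Stage I, 75.05, 53.8, 130.4 and 112 in Stage II, and 62.4, 76.3, 106 and 120.3 in Stage III, with replicates 1 and 2 in the low spike-in class and 3 and 4 in the high one. In each stage both high-class arrays were above both low-class arrays. With stage in the model WRKY20 was higher in the high class by 0.80 ± 0.14 (limma adjusted p = 0.00302), a comparison added after its values were seen. It was the 1 member of 7 called there, beside 10.8% of all probe sets, and it had no stage call (limma adjusted p = 0.461 over the 3 stages). Among the SCR arrays, the high-class array read 62.1 and the low-class arrays 63.9 and 61.2.

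A further comparison set all 15 line arrays against all 12 stage arrays and was also added after values were seen. Here 6 of 7 members were called, 5 higher and 1 lower in the lines, where 45.2% of all probe sets were called, 20.1% higher and 25.2% lower. WRKY22 had the clearest gap: its line arrays read 93.3 to 615 with a median of 166, its stage arrays 15.4 to 54.4 with a median of 33.2, and no array overlapped. The ratio was 5.67-fold (2.41 ± 0.18, limma adjusted p = 4.88e-11). The share of all probe sets without overlap between lines and stages was not counted. WRKY6 was 3.24-fold higher in the lines (1.68 ± 0.16, limma adjusted p = 4.26e-09), 210.5 to 2479 against 105 to 306, with overlap from WOL and Stage III. WRKY53 (0.81 ± 0.29, limma adjusted p = 0.0244) and WRKY47 (0.38 ± 0.15, 0.0385) were higher and WRKY20 lower (-0.44 ± 0.16, 0.0283), each with wide overlap. The WRKY47 call was lost in 13 of 27 fits that left out 1 array and the WRKY20 call in 7 of 27, and both were lost in other settings too, among them quantile normalization (adjusted p = 0.0799 and 0.0660) and Columbia lines only (0.263 and 0.118). WRKY53 lost its call with high-class arrays alone (1.00, adjusted p = 0.0725). WRKY42 passed (limma adjusted p = 0.00534), with 26 of 27 arrays under background, so no fold is given. NAC014 differed by -0.49 ± 0.35 (limma adjusted p = 0.270).

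Genes known to respond within minutes to touch, wounding or elicitors were also higher in the lines: 3 of the 18 listed were measured, and all 3 were called. ZAT10, a zinc finger repressor induced by many stresses, read 647 to 2832 on the line arrays and 16.8 to 173 on the stage arrays (4.66, limma adjusted p = 1.63e-14). The calmodulin-like genes CML37 (20.1 to 299 against 0.845 to 23.5) and CML38 (386 to 1857 against 2.27 to 89.0) were also higher in the lines (limma adjusted p = 1.44e-09 and 2.12e-11). As 11 of 12 stage arrays of CML37 and 7 of 12 of CML38 were under background, their ratios are bounds: at least 6.92-fold and at least 33.8-fold. The GAPDH 3'/5' ratio was 0.717 to 4.09 on the line arrays and 4.34 to 31.7 on the stage arrays, also without overlap, and its part in these differences was not tested. Marker lines and root segments differ in what was sampled and may differ in how it was prepared, and the 2 cannot be told apart for WRKY6, WRKY22 or these genes. Within J3411, CML37 (299, 274 and 81.1) and CML38 (1857, 1537 and 417) were also lowest on replicate 3, as WRKY6, WRKY22 and WRKY53 were. Against the other 4 lines, limma called 0 of these 3 genes in J3411 with all arrays, and ZAT10 (0.94, adjusted p = 0.0491) and CML38 (1.29, 0.00237) without J3411 replicate 3.

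**Figure D4:**
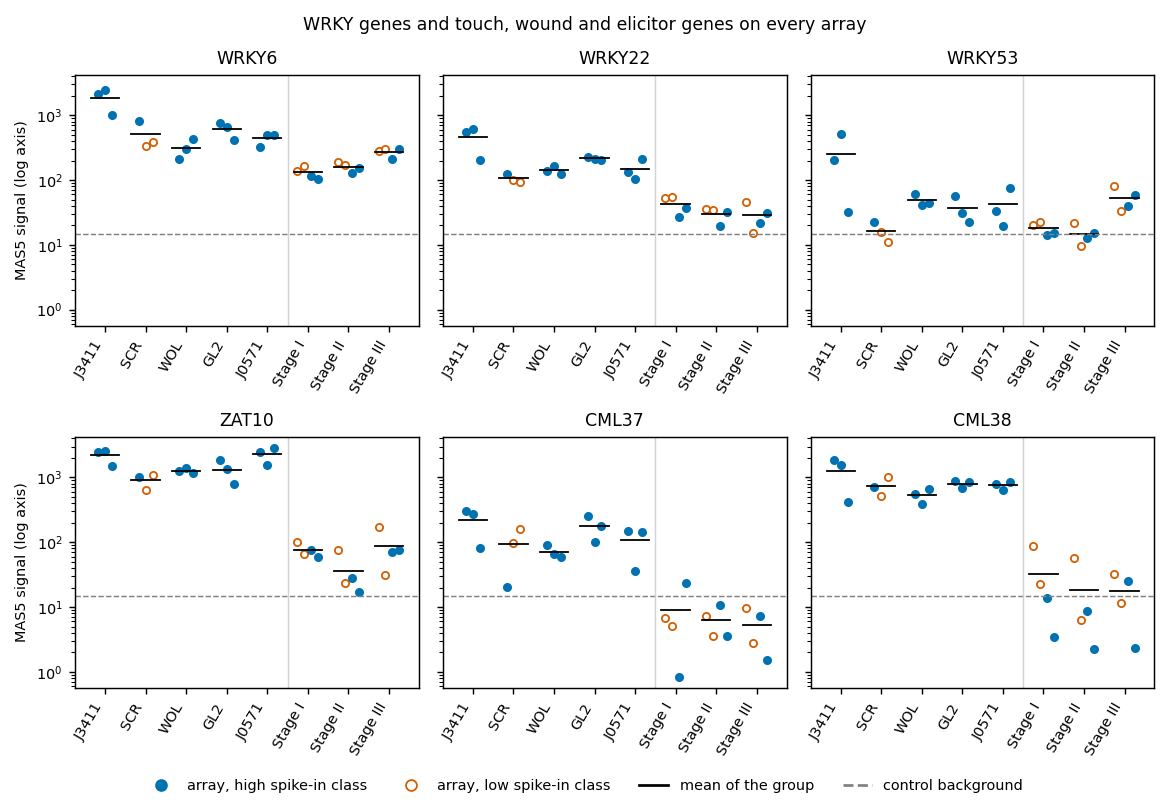
MAS5 signal (log axis) of WRKY6, WRKY22 and WRKY53 and of ZAT10, CML37 and CML38 on each of the 27 arrays, with filled points for the high and open points for the low spike-in class, bars for group means and a dashed line at the control background. The line arrays of WRKY22 (93.3 to 615), ZAT10 (647 to 2832) and CML38 (386 to 1857) lie above all their stage arrays, while WRKY53 overlaps.

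Of the listed signalling genes upstream of WRKY factors, 2 of 17 were measured. BIK1, a receptor-linked kinase of the flagellin pathway, read 299, 261 and 73.9 in J3411 and 45.03 to 139.9 in the other lines. It was higher in J3411 by 1.42 (limma adjusted p = 0.0174), and higher in Stage III than in Stage II by 1.46 (0.000898) and than in Stage I by 1.37 (0.000733). Leaving out J3411 replicate 1 or 2 ended the J3411 call (1.06 and 1.15, adjusted p = 0.185 and 0.164), and the stage calls were lost with high-class arrays alone (0.0516 and 0.0519). WRKY6 and WRKY53 were also higher in these comparisons. Of the same comparisons, WRKY22 was higher only in J3411 and WRKY47 only in those with Stage III. A relation of BIK1 to any member was not tested. EFR, the receptor for bacterial elongation factor Tu, was above background on 1 of 27 arrays. Of the genes that NAC factors switch on during root cap cell death, 5 of 9 were measured and 4 were higher in J3411, among them the protease gene PASPA3 (2.67, limma adjusted p = 0.000543) and DMP4 (1.70, 0.00145), where 5.02% of all probe sets were called higher. PASPA3 and RCPG of this list are also 2 of the 3 root cap markers, so this count is not separate from the marker count. For J3411 against WOL alone, 0 of 5 were called, and 1 of 5 was higher in WOL than in the other 4 lines. PASPA3 read 217 to 429 in WOL and 318 to 651 in J3411. DMP4 read 289 to 352 in Stage III and 69.6 to 112 in J3411. NAC014 was not higher in J3411 (-0.56 ± 0.64, limma adjusted p = 0.716). Of 4 senescence genes only SWEET15 was measured, and it was lower in GL2 (-1.47, limma adjusted p = 0.0289), where no member was called. That call was lost with quantile normalization (adjusted p = 0.0533), Columbia lines only (0.0547) and without GL2 replicate 1 (-0.72, 0.226) or 2 (0.0571).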

How the data were processed

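Total RNA was measured on 27 ATH1 arrays in 8 groups taken from the labels. Each deposited intensity is a MAS5 signal, per the submitters' processing notes, on a linear scale with a 2% trimmed mean of about 100.0 on every array. The version of MAS5 is not given in the sources. Values were used as deposited. Of 22810 probe sets, 64 controls were left out. Genes were named from the platform annotation, which gives 1 gene to 13513 probe sets, several to 503 and none to 8794, and all 7 member symbols matched RefSeq.

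Before log2, 2.37 (the 10th percentile over all arrays) was added to each signal as a pseudocount. limma 3.58.1 under R 4.3.3 fitted the 15 line arrays and the 12 stage arrays separately, with a mean per group and an intensity trend. Lines against stages and the spike-in class, split at the largest gap of the cre controls, were added after values were seen. The code was tested on simulated data. Members, lists and tests were chosen with earlier results of these data known. Named genes are members passing the threshold without overlap, WRKY6 throughout, up to 3 members per WRKY group, and up to 4 genes per list and comparison. WRKY22, WRKY53 and NAC014 also come under the group rule.

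Same-numbered stage arrays deviated together (correlations of 0.109 to 0.380 in 12 of 12 pairs). Of 36 differently numbered pairs, 8 were also over 0.1, such as Stage I replicate 4 with Stage II replicate 3 (0.252), both of the high class. The labels do not say what the numbers mark, and spike-in class follows them. How far the numbers themselves pair the stage arrays is therefore not settled. Alternatives were no pseudocount or one at the 25th percentile, quantile normalization, dim probe sets left out, calls of at least 2-fold, no intensity trend, the replicate block, each array left out, all arrays in one fit, Columbia lines only, and the spike-in class as a block or its high class alone.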

Additional observations from a re-analysis of the deposited data

How the results depend on the processing

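Of 19 member calls in the planned comparisons, 10 were kept under every alternative run, among them WRKY6 and WRKY22 in J3411, WRKY47 and WRKY53 in Stage III against both other stages, and WRKY6 in Stage III against Stage I. WRKY6 in Stage III against Stage II lost its call under 1 alternative, calls of at least 2-fold. In SCR the count of members called, 1 as reported, was 2 with no pseudocount, with dim probe sets left out and with all arrays in one fit, each adding WRKY53 (limma adjusted p = 0.0487, 0.0409 and 0.0152). Both spike-in settings leave SCR with 1 array, so their counts are not given. With calls of at least 2-fold the SCR count was 0. In WOL it was 0 rather than 1 with quantile normalization (WRKY6 adjusted p = 0.0614), no intensity trend (0.0656), the replicate block (0.0610) and Columbia lines only (0.130). Over the 5 lines it was 0 rather than 3 with Columbia lines only, which leaves out J3411 and SCR. For Stage II against Stage I it was 2 rather than 1 with the 25th percentile pseudocount, which adds NAC014 (adjusted p = 0.0449), and 0 with high-class arrays alone, which has fewer arrays, or with calls of at least 2-fold. Lines against stages had 2 calls rather than 6 with calls of at least 2-fold, WRKY6 and WRKY22. In fits that left out 1 array the counts ran from 2 to 3 in J3411, 0 to 2 in SCR, 0 to 1 in WOL, 2 to 3 over the 5 lines, 1 to 2 for Stage II against Stage I, 3 to 4 for Stage III against Stage I and over the 3 stages, and 4 to 6 for lines against stages. They stayed at 3 for Stage III against Stage II and at 0 in GL2 and J0571. The uncalled WRKY6 differences changed sign in SCR, from -0.37 to 0.42 in both spike-in settings, which leave SCR with replicate 1 alone. They also did so in GL2, from 0.04 to -0.16 under the same 2 settings and to between -0.15 and 0.30 with 1 array left out, and in J0571, from -0.51 to 0.039 with Columbia lines only. With the stage numbers as a replicate block, the counts changed only over the 3 stages, where NAC014 was added. The line arrays share only a replicate number (correlation over 0.1 in 3 of 30 pairs), and the block changed WRKY6 in WOL and WRKY53 over the 5 lines (adjusted p = 0.0550). For lines against stages, WRKY47 and WRKY20 lost their calls with the block (adjusted p = 0.124 and 0.167). Except where a setting has fewer arrays or a size limit, the cause was not tested. The median difference of all probe sets was 0.14 for WOL against GL2 and -0.14 for SCR against WOL as deposited, and -0.10 and 0.06 after quantile normalization. A second probe set per gene was not run, as each member has 1. Signals under 14.78 (WRKY42 on 26 of 27 arrays) limit what can be said of low genes.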

Other observations

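ZAP1 (AT2G04880), also known as WRKY1, is a group I WRKY gene that the symbol rule leaves out, and it was looked at after the members. It read 10.2, 1.54 and 12.9 in GL2 and 7.85, 17.5 and 11.8 in J3411, the lines of the epidermis, where 5 of 6 arrays were under background. The signals were 70.6, 42.8 and 70.1 in SCR, 75.6, 59.9 and 61.1 in WOL, and 36.4, 50.6 and 49.5 in J0571, so the arrays of these 3 lines lay above all GL2 and J3411 arrays. ZAP1 was lower in GL2 than in the other 4 lines (limma adjusted p = 0.000804), by at least 2.56-fold since all 3 GL2 arrays were under background. Unlike the other folds, this bound raises only GL2 signals to background and keeps those of the other lines as measured, low J3411 arrays included. ZAP1 was lower in J3411 (-1.36, limma adjusted p = 0.0214) and higher in SCR (1.29, 0.0211) and WOL (1.44, 0.0215). The SCR call was lost with a block for spike-in class (adjusted p = 0.223), with high-class arrays alone (0.239) and without SCR replicate 1 (0.0620) or 3 (0.110). The WOL call was lost with no pseudocount (adjusted p = 0.0593), with quantile normalization (0.0582) and without any 1 WOL array (0.0830 to 0.133). The J3411 call, opposite in direction to those of WRKY6 and WRKY22, was lost with no pseudocount (adjusted p = 0.0796) and without J3411 replicate 1 (-1.12, 0.173). Along the root it read 16.9 to 26.9 in Stage I, 32.2 to 72.2 in Stage II and 28.5 to 123 in Stage III, all Stage III arrays lying above all Stage I arrays (1.60, limma adjusted p = 0.00536). Within the stages it was also higher in the high spike-in class (0.87, limma adjusted p = 0.0372).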
